A study of Homo sapiens with 18 samples.

Results

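The genes described here are 3 transcription factors of the PEA3 subfamily of ETS factors (ETV1, ETV4 and ETV5), 3 dual-specificity phosphatases (DUSP4, DUSP5 and DUSP6) and 4 inhibitors of RAS and RAF signaling (SPRY1, SPRY2, SPRY4 and SPRED1). Their accessibility was read from bulk ATAC-seq of Ccd18-Co, a fibroblast line established from human colon. In this assay a transposase inserts into accessible DNA, and the fragments falling in each peak are counted. A peak belonged to a gene when it overlapped the gene body or lay up to 10 kb upstream, which gave 81 peaks of 334857 in the table, in 10 loci of 19188 protein-coding loci that held a peak.

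Growth factor receptors switch on RAS, which passes the signal through RAF and MEK to the kinase ERK. Active ERK induces ETV1, ETV4 and ETV5, and it also induces its own brakes. DUSP phosphatases remove phosphate from ERK, while Sprouty (SPRY) and SPRED proteins act upstream, on RAS and RAF. Transcripts of these genes are often used as a readout of ERK activity, but accessibility at a gene is not its transcript level, and no RNA was analysed here.

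The 18 libraries formed 3 groups of 6. Unstimulated cells are given by the labels without a cytokine, and no rest, solvent treatment or harvest time is listed for them. The DMSO and belinostat groups both received 3 pulses of TNF, OSM and IL-17A at 10 ng/ml each and IL-1β at 0.1 ng/ml, with 72 h of cytokine and 96 h of recovery in each pulse, and after 1 week of rest were given either the solvent DMSO or 250 nM belinostat, an inhibitor of histone deacetylases, for 5 days. The IL-1β dose is that of the labels, and the study's text gives both this and a lower one. The belinostat dose is also the one in the labels, and the study's own text states a larger one. Extracts were made 2 weeks after this treatment, so the libraries describe what remained of each exposure. All groups were the same cell line, and the labels do not say whether the 6 libraries of a group came from separate cultures, so p-values measure the spread between libraries, which may be technical. DMSO was compared with unstimulated cells (cytokine contrast), belinostat with DMSO (belinostat contrast), and belinostat with unstimulated cells (residual contrast). In the cytokine and residual contrasts, cytokines cannot be told apart from any difference in solvent or time in culture. The contrasts share libraries and are not independent of each other.

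Total counts in peaks ran from 4661678 to 11352032 per library, and totals were lower after belinostat than after DMSO (two-sided exact permutation p = 0.00216, or 0.00325 adjusted over 3 contrasts; 0.00216 is the smallest p that 6 against 6 libraries allow). The 10000 strongest peaks held 36.8% ± 1.26 (SD, n = 6) of counts without stimulation, 33.1% ± 1.28 after DMSO and 30.9% ± 2.23 after belinostat. The share was lower in the cytokine and residual contrasts (two-sided exact permutation test, adjusted over 3 contrasts p = 0.00325 for both), and the difference between belinostat and DMSO did not pass (adjusted p = 0.0714). Peaks in the strongest of 20 abundance bins had a median log2 fold change of -0.37 in the cytokine contrast. Starts of 9 fibroblast marker genes held a summed 351 CPM (counts relative to the library's total, scaled by TMM, the trimmed mean of M values) at the median of unstimulated libraries, against 60.1 for 6 epithelial, 17.1 for 6 leukocyte and 7.80 for 4 endothelial markers. No peak lay at the starts of SPI1 and LYZ. The epithelial sum had a median of 76.5 in belinostat libraries (range 71.6 to 80.8, against 51.9 to 74.2 in DMSO and 51.4 to 68.4 in unstimulated libraries). The endothelial sum ran from 5.85 to 8.74 in unstimulated, 9.53 to 14.8 in DMSO and 8.64 to 21.9 in belinostat libraries, and the leukocyte sum from 14.9 to 18.8, 16.7 to 23.9 and 19.9 to 29.2. The part of these markers in the results below was not tested. In bulk samples, fewer cells with an open site and less accessibility per cell cannot be told apart.

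The peaks on which the results turn are shown first. DUSP5 and ETV5 each held 1 intronic peak that closed after belinostat. The start of DUSP5 is shown beside its intronic peak, and the strongest ETV1 peak closed in the cytokine contrast. Windows of 300 bases were read at peak centres on the plus strand of hg38, and exons that are untranslated or belong to non-coding transcripts were left out, which cut the DUSP5 start window to the 176 bases before the annotated start. Capitals mark matches on either strand to short consensus words: TGANTCA (AP-1), CNGGAAGT (ETS), TGNGGTT (RUNX), GGAATG (TEAD), TGACGTCA (CRE), and the NF-kB word and the SRF CArG box.

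The ETV5 intronic window, 51.3 kb inside the gene (chr3:186057660-186057959), held 1 AP-1 word.
ETV5 intron: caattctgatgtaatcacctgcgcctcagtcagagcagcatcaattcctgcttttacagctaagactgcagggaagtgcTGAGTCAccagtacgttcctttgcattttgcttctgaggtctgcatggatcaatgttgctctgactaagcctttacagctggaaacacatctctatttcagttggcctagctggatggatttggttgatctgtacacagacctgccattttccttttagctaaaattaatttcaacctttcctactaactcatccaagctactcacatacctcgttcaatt

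The DUSP5 intronic window, 6.39 kb inside the gene (chr10:110504148-110504447), held 2 RUNX words and overlapping NF-kB words.
DUSP5 intron: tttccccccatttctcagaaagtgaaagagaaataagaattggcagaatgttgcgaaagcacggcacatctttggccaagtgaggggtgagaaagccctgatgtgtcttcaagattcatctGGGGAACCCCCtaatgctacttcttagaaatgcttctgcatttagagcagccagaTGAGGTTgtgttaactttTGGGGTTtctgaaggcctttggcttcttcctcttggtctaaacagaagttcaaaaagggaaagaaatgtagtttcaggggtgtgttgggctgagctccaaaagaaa

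The DUSP5 start window (chr10:110497731-110497906) held 2 CArG boxes, the word bound by SRF, side by side.
DUSP5 start: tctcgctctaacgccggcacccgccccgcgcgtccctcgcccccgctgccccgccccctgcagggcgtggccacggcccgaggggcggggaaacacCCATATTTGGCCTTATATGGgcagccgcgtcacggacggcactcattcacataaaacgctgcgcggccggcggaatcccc

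The ETV1 intronic window, 69.4 kb inside the gene (chr7:13920161-13920460), held 1 ETS and 1 TEAD word.
ETV1 intron: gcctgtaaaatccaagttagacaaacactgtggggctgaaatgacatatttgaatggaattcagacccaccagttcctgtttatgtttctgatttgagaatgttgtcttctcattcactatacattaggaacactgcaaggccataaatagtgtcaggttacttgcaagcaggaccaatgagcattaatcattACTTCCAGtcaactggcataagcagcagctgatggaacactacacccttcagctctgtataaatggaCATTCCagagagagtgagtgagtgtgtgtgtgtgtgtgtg

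Over all 81 member peaks, the CArG box lay in 5 windows (6.17%, against 1.68% of all 334857 peaks). The RUNX word lay in 20 (24.7% against 17.7%), the NF-kB word in 10 (12.3% against 8.24%), the ETS word in 6 (7.41% against 5.60%), the AP-1 word in 14 (17.3% against 17.8%) and the TEAD word in 17 (21.0% against 21.3%). The CRE word was in 0 windows, against 0.301% of all peaks. These shares describe letters only.

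The members differed in how much open chromatin they held. Of the 81 peaks, 39 lay in introns, 20 at annotated starts, 11 in exons and 11 upstream, and their widths ran from 150 to 1432 bp with a median of 394 bp. ETV4 held 15 peaks, ETV1 13, SPRY4 11, SPRED1 9 and ETV5 8, and DUSP4, DUSP5, DUSP6, SPRY1 and SPRY2 held 5 each. All 15 ETV4 peaks also lay in the locus of the neighbouring gene DHX8, and 2 ETV5 peaks at its start in that of DGKG. Shared peaks were counted in both loci, so the ETV4 and ETV5 locus values include signal that cannot be assigned to either gene alone. Per kb of peak, unstimulated levels were highest at DUSP6 (28.6 ± 0.712 CPM per kb, SD, n = 6) and SPRY2 (28.3 ± 1.04), whose libraries overlapped. ETV5 (21.6 ± 1.37) came next and overlapped neither neighbour in the order. SPRED1 (17.4 ± 1.33), DUSP5 (15.8 ± 0.558) and ETV1 (15.5 ± 0.477) overlapped each with the next, as did SPRY1 (12.6 ± 0.779) with SPRY4 (11.7 ± 0.651). ETV4 (8.45 ± 0.289) and DUSP4 (7.98 ± 0.290) were the lowest and overlapped.

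Changes are given on 2 scales. Locus values sum the counts of all peaks of a gene and were scaled by TMM over loci, which left the median locus near 0 (-0.018 in the cytokine, 0.0087 in the belinostat and -0.014 in the residual contrast, log2). Peak values were scaled by TMM over peaks. With that scale the loci shifted down as a whole, with medians of -0.26, -0.080 and -0.34, so the sign of a small locus change depends on the scale. In the cytokine contrast 1 of 10 loci opened (20.2% of all loci) and 2 closed (13.4%). In the belinostat contrast 0 opened (1.91%; 1 was higher at an unadjusted p under 0.05 in edgeR, and DESeq2 called 1) and 1 closed (3.92%). In the residual contrast 1 opened (27.6%) and 5 closed (25.1%). The 5 that closed lay in abundance bins where more loci closed, 56.0% at ETV1 and ETV5 and 41.8% at DUSP5, SPRY2 and SPRED1. Residual medians of those bins were -0.13 and -0.092. Over the 10 loci the residual median was -0.12, against -0.092 over the medians of loci of like abundance. Of the 10, 6 lay below the median for their abundance. With TMM over peaks 0 opened and 8 closed in the cytokine contrast, 0 and 0 in the belinostat contrast, and 0 and 9 in the residual contrast. On that scale most of the 19188 loci closed in the cytokine (12002) and residual (12810) contrasts, and 391 in the belinostat contrast. Most also closed with TMM over 10 kb bins (10664 and 11770) and over weaker peaks (15822 and 16321). Calls of a fall at a single gene on these scales were thus shared with most loci.

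**Figure D1:**
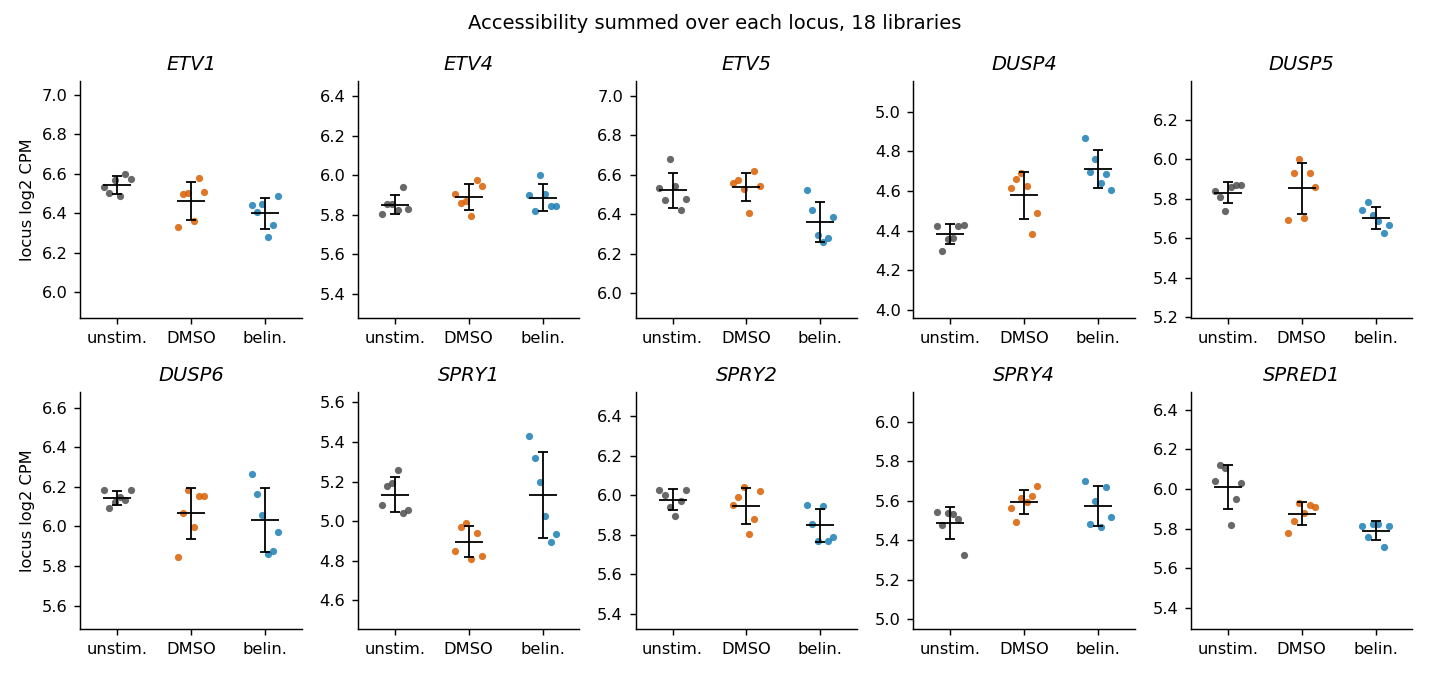
Locus log2 CPM (TMM over loci) of the 10 genes in 18 libraries, 1 point per library, with the mean and SD of each group of 6. All panels span the same range of 1.2 log2 units; DUSP4 rises from 4.38 to 4.71 between the unstimulated and belinostat means, and SPRY1 is lowest in DMSO libraries.

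The ETV loci moved little. The ETV4 locus, which encodes an ETS activator induced by ERK, stood at 55.6 to 61.2 CPM in unstimulated libraries (median 57.1), 55.1 to 62.6 in DMSO libraries (58.9) and 56.2 to 63.8 in belinostat libraries (58.4). The groups overlapped in every contrast. Its log2 fold changes were 0.041 ± 0.042 (SE) in the cytokine contrast, -0.0037 ± 0.044 in the belinostat contrast and 0.037 ± 0.043 in the residual contrast, none of which passed the test (edgeR adjusted p = 0.448, 0.974 and 0.479). With TMM over peaks its cytokine and residual changes turned to -0.20 and -0.29, and both then passed as falls (adjusted p = 0.0150 and 0.000684), while with loess offsets the residual change passed as a rise (0.12, adjusted p = 0.0324). Of its 15 peaks, 0 opened or closed in the cytokine contrast (1 higher and 3 lower at an unadjusted p under 0.05 in edgeR, and 0 called by DESeq2) and 0 in the belinostat contrast (1 higher and 1 lower, and 0 called by DESeq2 among the 10 to which it gave an adjusted p). In the residual contrast 0 opened (16.8% of all peaks; 1 was higher at an unadjusted p under 0.05 in edgeR, and DESeq2 called 0) and 3 closed (13.7% of all peaks; 2 in DESeq2). The lowest was the start peak, which lay 15.7 kb inside the gene near an alternative start (-0.52 ± 0.12, edgeR adjusted p = 0.000373).

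The ETV5 locus, a close relative of ETV4, was lower after belinostat. It ran from 84.5 to 98.0 CPM in DMSO libraries (median 93.5) and from 76.4 to 91.7 in belinostat libraries (80.7), against 85.5 to 102 in unstimulated libraries (90.6). Belinostat libraries were mostly below the others but overlapped with both groups. Its log2 fold change was 0.015 ± 0.047 in the cytokine contrast (edgeR adjusted p = 0.823; called lower, at -0.22, with TMM over peaks), -0.18 ± 0.05 in the belinostat contrast (adjusted p = 0.0328) and -0.16 ± 0.05 in the residual contrast (adjusted p = 0.00744). In the residual contrast the median locus of like abundance was at -0.13, and 56.0% of such loci closed. The residual call was lost with loess offsets, which are fitted to abundance (-0.064, adjusted p = 0.269). The belinostat call was lost with TMM over peaks (-0.26, adjusted p = 0.0945), over 10 kb bins (0.0950) or over weaker peaks (0.472), with loess offsets (-0.13, 0.0925), with peaks within 1 kb of a start (0.0979), and when a single library was left out, any of DMSO 1, 2, 3, 5 or 6 or belinostat 3, 4 or 5, where adjusted p ran from 0.0528 to 0.0828.

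The ETV1 locus was at 89.3 to 96.7 CPM in unstimulated libraries (median 93.4), 80.3 to 95.2 in DMSO libraries (90.1) and 77.3 to 89.3 in belinostat libraries (85.6). Every belinostat library was below every unstimulated library, which held for 9.15% of all loci. The log2 fold change was -0.14 ± 0.04 in the residual contrast (edgeR adjusted p = 0.00912), -0.078 ± 0.042 in the cytokine contrast (adjusted p = 0.150; called lower with TMM over peaks, at -0.32, over 10 kb bins, at -0.27, and over weaker peaks, at -0.76) and -0.064 ± 0.045 in the belinostat contrast (adjusted p = 0.423). In the residual contrast the median locus of like abundance was at -0.13, and 56.0% of such loci closed. The residual call was lost with loess offsets (-0.043, adjusted p = 0.387) and with peaks within 1 kb of a start (0.195).

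Among the phosphatases, the DUSP4 locus rose. DUSP4 acts on ERK in the nucleus. It ran from 19.4 to 21.3 CPM in unstimulated libraries (median 20.7), from 20.6 to 25.5 in DMSO libraries (24.3) and from 24.0 to 29.0 in belinostat libraries (25.6). Every belinostat library was above every unstimulated library, which held for 8.39% of all loci. Its log2 fold change was 0.20 ± 0.06 in the cytokine contrast (edgeR adjusted p = 0.0172), 0.13 ± 0.07 in the belinostat contrast (adjusted p = 0.262) and 0.33 ± 0.07 in the residual contrast (adjusted p = 0.000222), but with TMM over peaks the cytokine change turned to -0.036 and the residual change was 0.0024, neither of them called. With TMM over weaker peaks both were called as falls (-0.48 and -0.56).

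The DUSP5 and DUSP6 loci differed from DUSP4. DUSP5, a nuclear phosphatase specific to ERK, ran from 51.4 to 63.7 CPM in DMSO libraries (median 59.2), from 49.1 to 54.7 in belinostat libraries (51.7) and from 53.1 to 58.2 in unstimulated libraries (57.4). It closed in the residual contrast (log2 fold change -0.13 ± 0.05, edgeR adjusted p = 0.0358), a call lost when unstimulated 1, 4, 5 or 6 or belinostat 4, 5 or 6 was left out (adjusted p of 0.0553 to 0.0856), with loess offsets (-0.054, adjusted p = 0.392) and in DESeq2 (0.0666). The cytokine change was 0.023 ± 0.049 (adjusted p = 0.737; called lower, at -0.21, with TMM over peaks), and the belinostat change of -0.15 ± 0.05 did not pass (adjusted p = 0.0818), although it did without DMSO 1 (0.0366), without DMSO 4 (0.0378) and with the locus cut to 3 kb upstream (-0.27, 0.00458). DUSP6, which acts on ERK in the cytoplasm, had log2 fold changes of -0.074 ± 0.058, -0.038 ± 0.062 and -0.11 ± 0.06 in the 3 contrasts and was not called (adjusted p = 0.322, 0.757 and 0.120). In the residual contrast it was called lower without belinostat 1 (adjusted p = 0.0157). With TMM over peaks it was called lower in the cytokine (-0.31, 0.00574) and residual (-0.43, 0.000268) contrasts, as it was with TMM over 10 kb bins (-0.26, 0.0140, and -0.36, 0.00104) and over weaker peaks (-0.76, 0.000739, and -0.98, 2.92e-05).

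Of the RAS and RAF inhibitors, SPRY1 changed the most after cytokines. The locus ran from 32.6 to 38.0 CPM in unstimulated libraries (median 34.7), from 27.7 to 31.5 in DMSO libraries (29.5) and from 29.5 to 42.9 in belinostat libraries (34.3). Every DMSO library was below every unstimulated library, which held for 4.55% of all loci, while belinostat libraries overlapped with both. The cytokine change was -0.25 ± 0.07 (edgeR adjusted p = 0.0128) and was called in 22 of 22 alternatives, with log2 fold changes of -0.92 to -0.19. The belinostat change pointed up, 0.24 ± 0.08, but did not pass (adjusted p = 0.0645). It passed without belinostat 5 (adjusted p = 0.0334), without belinostat 6 (0.0360), with peaks within 1 kb of a start (0.0219), in DESeq2 (0.0486) and with the replicate block (0.0497). The residual change was -0.0042 ± 0.075 (adjusted p = 0.967; called lower, at -0.32, with TMM over peaks).

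SPRED1, which brings the RAS inactivator neurofibromin to the membrane, fell in 2 contrasts. It ran from 56.1 to 69.3 CPM in unstimulated libraries (median 65.3), 54.7 to 60.7 in DMSO libraries (59.1) and 52.0 to 56.3 in belinostat libraries (56.0). The residual change was -0.22 ± 0.05 (edgeR adjusted p = 0.000725), called in 22 of 22 alternatives. The cytokine change of -0.13 ± 0.05 (adjusted p = 0.0318) was lost when unstimulated 1, 2, 3 or 6 or DMSO 1, 2 or 4 was left out (adjusted p of 0.0534 to 0.0818), with loess offsets (-0.083, 0.187), in DESeq2 (0.0505) and with peaks within 1 kb of a start (0.158). The belinostat change of -0.087 ± 0.051 did not pass (adjusted p = 0.324).

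SPRY2 and SPRY4 changed less. SPRY2 closed in the residual contrast (log2 fold change -0.13 ± 0.05, edgeR adjusted p = 0.0279), a call lost when unstimulated 1 or 6 or belinostat 3, 5 or 6 was left out (adjusted p of 0.0582 to 0.0732), with loess offsets (-0.045, adjusted p = 0.448), in DESeq2 (0.0575) and with peaks within 1 kb of a start (0.218). Its cytokine change was -0.027 ± 0.046 (adjusted p = 0.666) and turned to 0.024 with loess offsets but was called lower with TMM over peaks (-0.27, adjusted p = 0.00528), over 10 kb bins (-0.21, 0.0140) and over weaker peaks (-0.71, 0.000669). Its belinostat change was -0.10 ± 0.05 (adjusted p = 0.230). SPRY4 changed by 0.10 ± 0.05, -0.019 ± 0.053 and 0.086 ± 0.052 in the 3 contrasts (adjusted p = 0.104, 0.868 and 0.168), with cytokine and residual changes of -0.13 and -0.24 under TMM over peaks, the second of them called, and of 0.15 and 0.15 with loess offsets, both called as rises (adjusted p = 0.0315 and 0.0224).

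**Figure D2:**
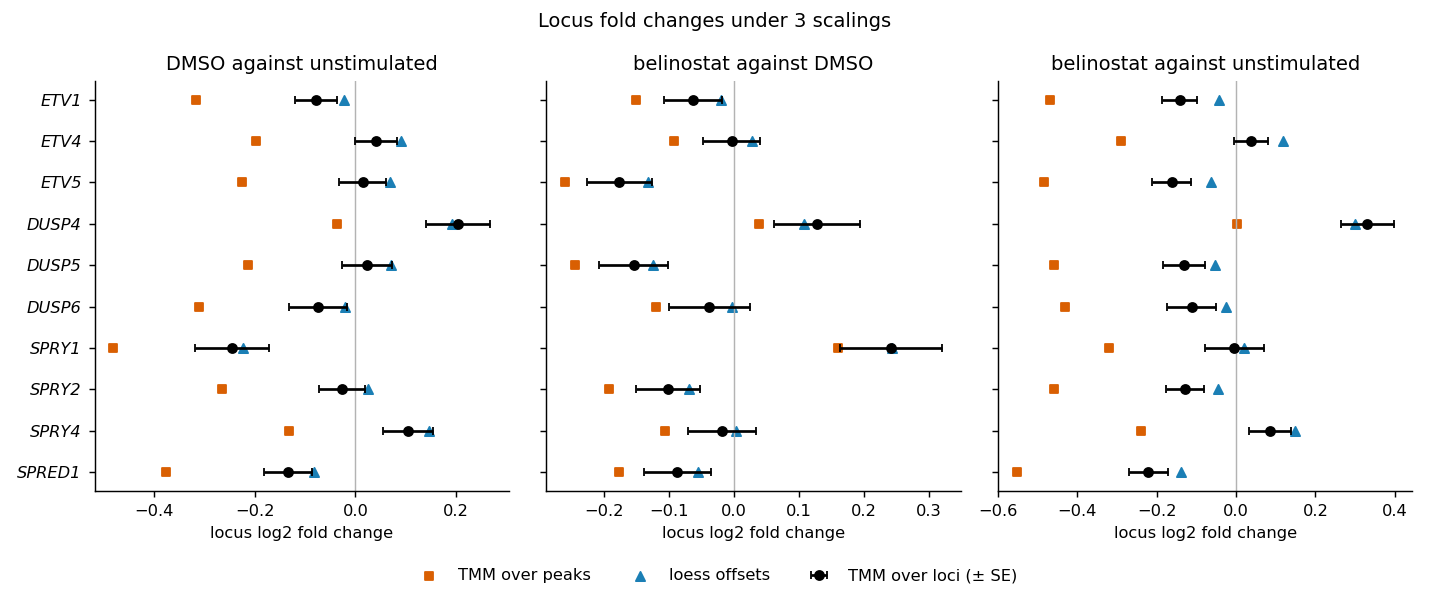
Locus log2 fold changes of the 10 genes in the 3 contrasts, with TMM over loci (black, bars show the SE), TMM over peaks (squares) and loess offsets fitted to abundance (triangles). SPRY1 in the cytokine contrast and SPRED1 in the residual contrast lie below 0 on every scale, while DUSP4 moves from 0.33 to 0.0024 in the residual contrast with TMM over peaks.

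At single peaks, which were scaled by TMM over peaks, strong peaks of the members closed in the cytokine contrast along with strong peaks elsewhere. Of 81 peaks, 0 opened (9.51% of all peaks; 4 were higher at an unadjusted p under 0.05 in edgeR, and DESeq2 called 0) and 11 closed (9.73%). The count that closed fell to 7 without unstimulated 1, 6 without unstimulated 6 and 7 without DMSO 4. The median log2 fold change was -0.19, against 0.13 over all peaks and -0.21 over the medians of all peaks of like abundance, and 37 of 81 lay below the latter. All 20 member peaks with an average log2 CPM over 3 had values below 0, of which 8 closed. Their median was -0.28 against -0.37 for peaks of like abundance, and 5 of the 20 lay below the median for their abundance. With loess offsets, which remove the trend with abundance, 0 member peaks closed and 3 opened. Of all 334857 peaks, 5901 closed and 7204 opened with these offsets.

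The start peak of a gene was taken as its strongest peak within 1 kb of an annotated start. That of ETV4 lay 15.7 kb inside the gene and that of ETV1 1.82 kb upstream of the canonical start, each near an alternative start. All 10 start peaks were below 0 in the cytokine contrast and 6 closed (9.73% of all peaks of any strength). Their median log2 fold change was -0.31 against -0.37 for peaks of like abundance. SPRY1 fell the most of the 10. Its start peak (chr4:123399265-123399902, 2.79 kb inside the gene at an alternative start) ran from 8.70 to 11.3 CPM in unstimulated libraries (median 10.3), 5.25 to 8.39 in DMSO libraries (6.46) and 6.52 to 10.6 in belinostat libraries (8.10). Every DMSO library lay below every unstimulated one (3.82% of all peaks). The log2 fold change was -0.59 ± 0.14 (edgeR adjusted p = 0.00178), and with loess offsets it was -0.29 and not called (adjusted p = 0.145). All 5 SPRY1 peaks were below 0 and below the median for their abundance, and 3 of them closed.

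The other 5 start peaks that closed in the cytokine contrast were at SPRED1 (-0.43 ± 0.11, edgeR adjusted p = 0.00237), DUSP5 (-0.38 ± 0.11, 0.00950), SPRY2 (-0.34 ± 0.11, 0.0202), ETV5 (-0.31 ± 0.10, 0.0212) and DUSP6 (-0.31 ± 0.11, 0.0304). With loess offsets those of SPRED1 and DUSP5 were at -0.029 and -0.011, not called. Those of ETV5, DUSP6 and SPRY2 turned to 0.12, 0.091 and 0.046 with loess offsets. The calls at these 3 also depended on single libraries. The ETV5 call was lost without unstimulated 1, 3 or 6 or DMSO 4 (adjusted p of 0.0559 to 0.0733), the SPRY2 call without unstimulated 1 or 6 or DMSO 4 or 5 (0.0604 to 0.0690), and the DUSP6 call without unstimulated 1, 3, 4 or 6 or DMSO 1, 2 or 4 (0.0518 to 0.138). The start peaks of ETV4 (-0.28 ± 0.12), SPRY4 (-0.27 ± 0.11) and ETV1 (-0.24 ± 0.11) did not pass (adjusted p = 0.0700, 0.0764 and 0.110) and turned above 0 with loess offsets. All 3 passed with TMM over weaker peaks (0.00464, 0.00504 and 0.00652). Those of ETV4 and SPRY4 passed without DMSO 3 (0.0350 and 0.0387), and that of ETV4 with the replicate block (0.04996).

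DUSP4 stood out by its value. Its start peak (chr8:29349852-29351264) ran from 11.9 to 17.4 CPM in unstimulated libraries (median 13.7), 10.8 to 18.6 in DMSO libraries (13.1) and 10.7 to 18.1 in belinostat libraries (14.3), so the 3 groups overlapped almost wholly. The log2 fold change was -0.038 ± 0.12 in the cytokine contrast (edgeR adjusted p = 0.858), where the median peak of like abundance was at -0.37, and it turned to 0.31 with loess offsets, adjusted p = 0.0280. This is a description of 1 peak beside the trend, and the difference from the trend was not tested.

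**Figure D3:**
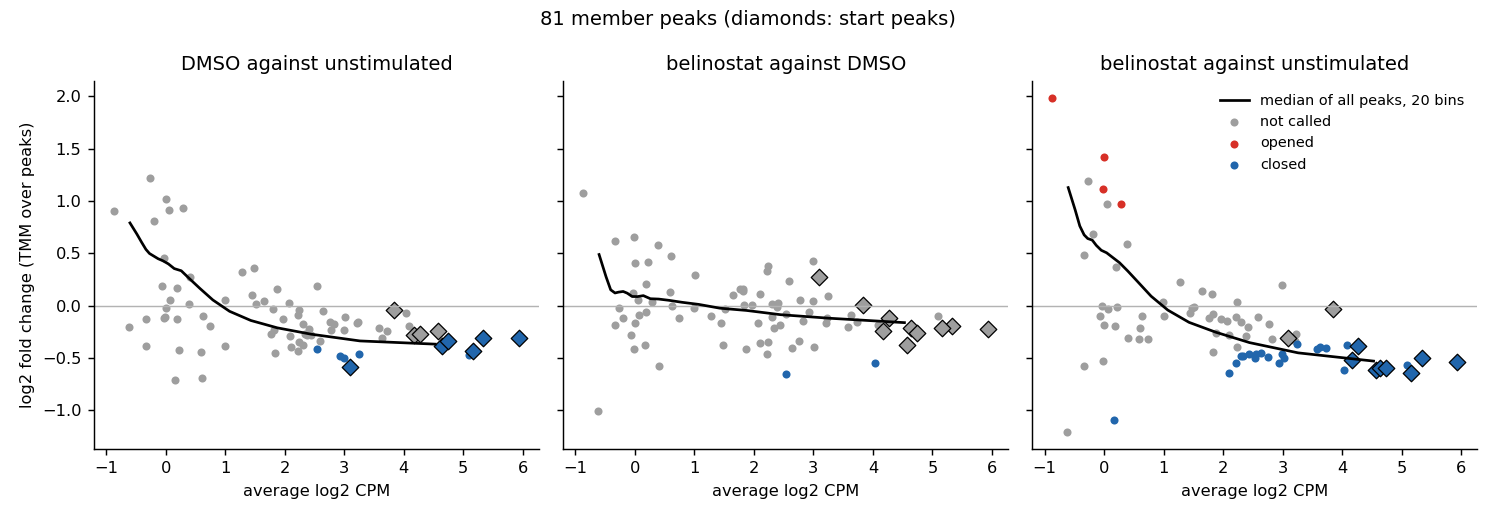
Log2 fold change (TMM over peaks) against average log2 CPM of the 81 member peaks in each contrast, with start peaks as diamonds and the line joining medians of all 334857 peaks in 20 bins of abundance. Most member start peaks lie near the line; the DUSP4 start peak lies above it in the cytokine contrast, at -0.038 against -0.37.

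In the belinostat contrast 0 of 81 member peaks opened (0.607% of all peaks; 2 were higher at an unadjusted p under 0.05 in edgeR, and DESeq2, which gave no adjusted p for 21 of the 81, called 0) and 2 closed (1.75%), with a median log2 fold change of -0.087 against 0.011 over all peaks. Of the 10 start peaks 0 passed, with log2 fold changes of -0.37 to 0.28 (4 were lower at an unadjusted p under 0.05 in edgeR, and DESeq2 called 1 of them closed).

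The first peak that closed lay in an intron of DUSP5, 6.39 kb inside the gene (chr10:110503860-110504736, 877 bp), the one whose centre is printed above with RUNX and NF-kB words. It ran from 16.2 to 20.7 CPM in unstimulated libraries (median 18.0), from 14.1 to 21.3 in DMSO libraries (16.7) and from 9.84 to 16.4 in belinostat libraries (11.9). The highest belinostat library overlapped with the other groups. The log2 fold change was -0.55 ± 0.13 in the belinostat contrast (edgeR adjusted p = 0.00312), where the median peak of like abundance was at -0.16. The call held in 19 of 20 alternatives, the exception being TMM over weaker peaks (-0.67, adjusted p = 0.0966). In the cytokine contrast this peak was at -0.071 ± 0.12 (adjusted p = 0.704) and turned to 0.28 with loess offsets. In the residual contrast it closed (-0.62, edgeR adjusted p = 4.58e-05), but not with loess offsets (adjusted p = 0.470). Its log2 ratio to the DUSP5 start peak, with both in the same library, averaged -0.70 ± 0.11 (SD, n = 6) without stimulation, -0.40 ± 0.20 after DMSO and -0.73 ± 0.20 after belinostat.

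The second lay in an intron of ETV5, 51.3 kb inside the gene (chr3:186057527-186058093, 567 bp), with the AP-1 word printed above. It ran from 4.01 to 7.49 CPM in unstimulated libraries (median 5.59), from 4.97 to 8.99 in DMSO libraries (6.33) and from 3.19 to 5.21 in belinostat libraries (4.42). The lowest DMSO library overlapped with the highest belinostat libraries. The log2 fold change was -0.65 ± 0.17 (edgeR adjusted p = 0.0130) in the belinostat contrast, and it was called in 17 of 20 alternatives. It was lost without DMSO 3 (adjusted p = 0.0959), without belinostat 5 (0.0663) and with TMM over weaker peaks (0.0574). The cytokine change was 0.19 ± 0.15 (adjusted p = 0.392), but it was called as a rise with library totals (0.41, adjusted p = 0.0314), loess offsets (0.46, 0.0375) and TMM over loci (0.43, 0.0217) and turned to -0.25 with TMM over weaker peaks (0.416). In the residual contrast the peak closed (-0.46, edgeR adjusted p = 0.0321), a call that held in 10 of 20 alternatives. Its log2 ratio to the ETV5 start peak was -3.61 ± 0.27 (SD, n = 6), -3.13 ± 0.22 and -3.49 ± 0.19 in the groups in the same order.

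**Figure D4:**
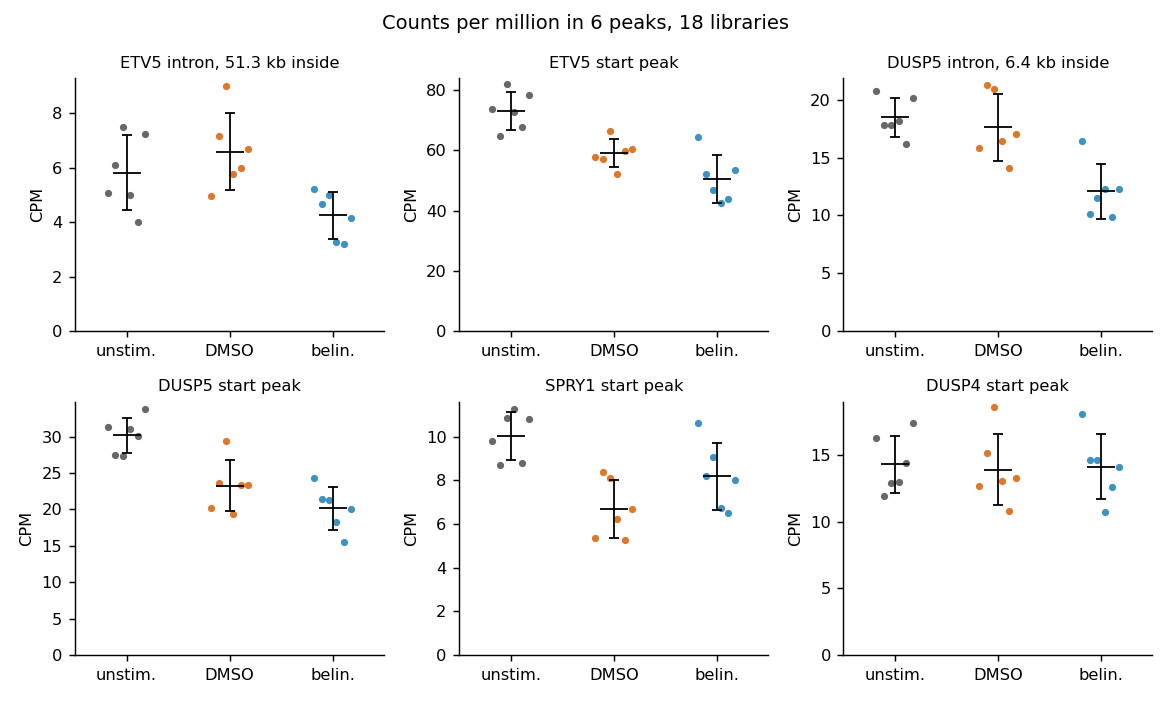
CPM (TMM over peaks) in 6 peaks, 1 point per library, with the mean and SD of each group of 6; every axis starts at 0. The DUSP5 intronic peak falls from a DMSO mean of 17.6 to a belinostat mean of 12.1, and the SPRY1 start peak is at 10.0 in unstimulated and 6.68 in DMSO libraries.

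In the residual contrast 28 of 81 peaks closed (13.7% of all peaks) and 4 opened (16.8%), with a median log2 fold change of -0.28 against 0.20 over all peaks and -0.25 over peaks of like abundance. The 10 start peaks were all below 0 and 8 of them closed. Their median was -0.53, and that of peaks of like abundance was also -0.53. The lowest were SPRED1 (-0.64 ± 0.11, edgeR adjusted p = 8.38e-07), ETV1 (-0.61 ± 0.12, 1.13e-05), SPRY2 (-0.60 ± 0.11, 1.01e-05) and DUSP5 (-0.59 ± 0.11, 1.65e-05). With loess offsets 2 member peaks closed and 2 opened, and the ETV1, DUSP5 and SPRED1 start peaks were at -0.059, -0.045 and -0.041, not called. Of all 334857 peaks, these offsets closed 14441 and opened 14807. The intronic ETV1 peak shown above ran from 38.3 to 48.8 CPM in unstimulated libraries (median 41.6), 24.5 to 34.9 in DMSO libraries (31.7) and 22.2 to 34.1 in belinostat libraries (29.8). All unstimulated libraries were above all others at this peak, as at 3.82% of all peaks in the cytokine and 6.16% in the residual contrast. Its log2 fold change was -0.48 ± 0.11 in the cytokine contrast (edgeR adjusted p = 0.00101) and -0.57 ± 0.11 in the residual contrast (1.76e-05), and with loess offsets -0.078 and 0.016.

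The 4 peaks that opened in the residual contrast were weak, with averages of at most 0.29 log2 CPM. They lay in a DUSP4 intron (log2 fold change 1.42 ± 0.42, edgeR adjusted p = 0.00636), 8.48 kb upstream of DUSP6 (1.99 ± 0.66, 0.0155), and in 2 exons of SPRY4 (1.12 ± 0.41, 0.0288, and 0.97 ± 0.38, 0.0387). At the DUSP6 site unstimulated libraries had 0 to 0.254 CPM and belinostat libraries 0.195 to 0.740. At such levels a library holds a handful of fragments, and the unstimulated and belinostat groups overlapped at all 4 peaks. None of the 4 was called with loess offsets, and the 2 SPRY4 peaks were lost when unstimulated 3 or 6 or belinostat 4 or 5 was left out (adjusted p of 0.0513 to 0.138). The first SPRY4 peak was also lost without unstimulated 4, belinostat 3 or belinostat 6 (0.0531 to 0.0734), and the second without unstimulated 1 (0.102).

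The rest of the ERK pathway was read from 104 listed genes, all with peaks, on the locus scale. Their values are given with TMM over loci only, and the alternatives were not examined for them. With TMM over peaks the median of all loci was -0.26 in the cytokine contrast, so small changes here depend on the scale. In the cytokine contrast 12 opened (20.2% of all loci did) and 20 closed (13.4%), with a median log2 fold change of -0.058 against -0.018 over all loci. In the belinostat contrast 2 opened (1.91%) and 8 closed (3.92%; median -0.022), and in the residual contrast 20 opened (27.6%) and 42 closed (25.1%; median -0.078 against -0.014).

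Among 18 ligands, 4 opened (20.2% of all loci) and 2 closed (13.4%) after cytokines. TGFA, a ligand of the EGF receptor, ran from 11.7 to 17.0 CPM in unstimulated and from 18.0 to 27.1 in DMSO libraries, without overlap, which held for 7.52% of all loci (log2 fold change 0.49 ± 0.13, edgeR adjusted p = 0.00495). FGF1, a fibroblast growth factor, fell from a median of 119 to 105 CPM, also without overlap (-0.20 ± 0.04, adjusted p = 0.00123). Of 11 receptors, 2 opened (20.2% of all loci) and 3 closed (13.4%). FGFR2, a receptor of fibroblast growth factors, was the higher of the 2 (0.69 ± 0.15, adjusted p = 0.00187). It was weak, at 7.26 to 15.1 CPM in unstimulated libraries. PDGFRB, a PDGF receptor that marks fibroblasts, closed (-0.16 ± 0.04, adjusted p = 0.00152).

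Of 24 genes of the RAS, RAF, MEK and ERK cascade and its adaptors, scaffolds and associated kinases, 3 opened (20.2% of all loci) and 2 closed (13.4%) after cytokines. The rises were led by the scaffold gene KSR2 (0.51 ± 0.08, edgeR adjusted p = 7.27e-05) and by RPS6KA1, a kinase that ERK activates (0.54 ± 0.08, 9.86e-05). In the belinostat contrast 1 closed (3.92% of all loci), RRAS, a small GTPase (-0.20 ± 0.05, adjusted p = 0.0114). Of 18 other feedback inhibitors, 1 opened (20.2% of all loci) and 4 closed (13.4%) after cytokines. DUSP9, at 3.76 to 6.56 CPM in unstimulated libraries, was the 1 that opened (0.77 ± 0.15, adjusted p = 0.000610). DUSP10 was among those that closed (-0.17 ± 0.04, 0.00268). Belinostat closed 2 (3.92% of all loci), DUSP16 (-0.24 ± 0.07, 0.0315) and NF1 (-0.14 ± 0.04, 0.0315), the latter encoding the neurofibromin that SPRED1 binds.

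Of 17 genes for other ETS factors and for CIC, a repressor of ETV1, ETV4 and ETV5, 2 opened (20.2% of all loci) and 4 closed (13.4%) after cytokines. In the belinostat contrast FLI1 (0.17 ± 0.05, edgeR adjusted p = 0.0279) and ETV6 (0.16 ± 0.05, 0.0430) opened (1.91% of all loci). In the same contrast ETS1 (-0.17 ± 0.03, edgeR adjusted p = 0.00122) and CIC (-0.13 ± 0.04, 0.0307) closed (3.92%). ETS1 ran from 237 to 247 CPM in DMSO and from 200 to 228 in belinostat libraries, without overlap, which held for 1.79% of all loci. Of 16 ERK target genes, 5 closed after cytokines (13.4% of all loci) and 12 in the residual contrast (25.1%), with medians of -0.11 and -0.16. Belinostat closed EGR1 (-0.18 ± 0.05, edgeR adjusted p = 0.0282) and SRF (-0.19 ± 0.05, 0.0206), which encode an early response factor and the factor that binds CArG boxes.

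As a last description, the mean profile of the 10 loci over 18 libraries was set beside 17228 other loci with a mean of at least 5 CPM. Nearest were TSC22D2 (Pearson r = 0.894), LSM8 (0.874) and PPM1N (0.856), against a median r of 0.178 over all candidates. The mean profile itself spanned only -0.098 to 0.097 log2 units between libraries, and none of the 3 loci was called in any contrast.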

How the data were processed

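The authors aligned bulk ATAC-seq reads to hg38, filtered out duplicated and mitochondrial reads, and counted fragments in a consensus set of MACS2 peaks from every condition. The table as deposited gives these raw counts with no scaling. The background bins on which the authors scaled them were not analysed here. Groups came from the sample titles.

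Tests used edgeR 4.0.16 under R 4.3.3 (glmQLFit and glmQLFTest, 1 mean per group over 18 libraries, no covariate), with Benjamini-Hochberg adjustment over all peaks or all loci and a threshold of 0.05. Factors came from TMM over peaks for peaks and over loci for loci. A minimum average of -3 log2 CPM, as in the study, removed 0 peaks. Log2 CPM used a prior count of 2. A share of background reads that differs between libraries passes into peak counts, where it raises weak peaks relative to strong ones. Locus counts summed the peaks over the body or 10 kb upstream in GENCODE release 44. Every pair of libraries in a group differed beyond counting noise. The script was tested on simulated data.

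All 10 loci were named, with their start peaks, strongest peaks, the peaks called after belinostat and up to 6 peaks with the smallest p per direction in the other contrasts. Pathway loci could be named when called after belinostat or when among the 2 with the smallest p per direction in a list. A further such locus is not reported here. The members and lists were chosen with earlier results of these data known. Alternatives were library totals, TMM over 10 kb bins, weaker peaks or the other feature type, loess offsets (limma 3.58.1), a higher filter, DESeq2 1.42.0, a replicate block, other locus definitions, and leaving out each library.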

Additional observations from a re-analysis of the deposited data

Results flagged for a closer look

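At the SPRY4 locus, unstimulated 6 lay apart from its group, with 5.32 log2 CPM against 5.48 for the nearest of the other unstimulated libraries, a gap of 0.709 of the group's range, past the 95% limit of Dixon's test. Of 87 groups of values tested it was the 1 that stood out, and chance marks about 1 in 20. The same library had 11.3% of all peaks at a count of 0, the highest share of the 18. The SPRY4 locus was not called in any contrast.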

How the results depend on the processing

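The cytokine fall at the SPRY1 locus and the residual fall at the SPRED1 locus kept their direction and call in 22 of 22 alternatives. Most other results depended on the scaling, and the cause was not tested beyond what the scalings themselves do. For opened and closed member peaks, library totals gave 6 and 3 in the cytokine contrast, 1 opened after belinostat, and 9 and 9 in the residual contrast. TMM over loci gave 6 and 3, 1, and 9 and 8. TMM over 10 kb bins opened 2 in the cytokine contrast. TMM over weaker peaks closed 43, 0 and 56 and opened 0 in the residual contrast. Of all 334857 peaks it closed 84230, 3390 and 103354. Loess offsets gave 3 and 0, 1 opened after belinostat, and 2 and 2. A filter at an average log2 CPM over 0 opened 1 and 2 in the cytokine and residual contrasts, and DESeq2 gave 2 and 15 in the residual contrast.

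For loci, TMM over 10 kb bins gave 0 opened and 7 closed in the cytokine contrast, 0 closed after belinostat and 0 and 9 in the residual contrast. TMM over weaker peaks gave 0 and 10, 0, and 0 and 10, TMM over peaks 0 and 8, 0, and 0 and 9, and loess offsets 2 and 1, 0, and 3 and 1. Of all 19188 loci, TMM over weaker peaks closed 15822 and 16321 in the cytokine and residual contrasts, and TMM over peaks 12002 and 12810. Loess offsets opened 2741 and 3998 of them and closed 1575 and 3417. DESeq2 closed 1 and 3 in the cytokine and residual contrasts and opened 1 after belinostat. Peaks within 1 kb of a start gave 1 closed, 1 opened and 0 closed after belinostat, and 3 closed in the residual contrast. The gene body with 3 kb upstream closed 2 after belinostat.

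Without single libraries, opened and closed member peaks ranged from 0 to 2 and 6 to 16 (cytokine), 0 to 1 and 1 to 5 (belinostat), and opened ones from 2 to 5 (residual). Loci closed ranged from 1 to 2, 0 to 2 and 3 to 6, and loci opened after belinostat from 0 to 1.

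Directions turned as follows in the cytokine contrast. With loess offsets the start peaks of ETV1 (0.14), ETV4 (0.077), ETV5 (0.12), DUSP4 (0.31), DUSP6 (0.091), SPRY2 (0.046) and SPRY4 (0.091), the DUSP5 intronic peak (0.28) and the SPRY2 locus (0.024) turned up. The DUSP4 start peak also turned up with library totals (0.18), TMM over 10 kb bins (0.014), DESeq2 (0.0069) and TMM over loci (0.20), the DUSP5 intronic peak with library totals (0.14) and TMM over loci (0.17), and the ETV1 start peak with TMM over loci (0.0013). The ETV5 intronic peak turned down with TMM over weaker peaks (-0.25). Loci turned down with TMM over 10 kb bins, over weaker peaks and over peaks at ETV4 (-0.15, -0.64 and -0.20), ETV5 (-0.17, -0.67 and -0.22), DUSP5 (-0.16, -0.65 and -0.21) and SPRY4 (-0.081, -0.57 and -0.13), and with the last 2 at DUSP4 (-0.48 and -0.036). Library totals turned ETV5 (-0.010) and DUSP5 (-0.0019) down. Peaks within 1 kb of a start turned ETV1 (0.062), DUSP6 (0.00058) and SPRY2 (0.014) up and DUSP5 (-0.092) down.

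In the belinostat contrast ETV4 turned up with loess offsets (0.027) and DESeq2 (0.0038), SPRY4 with loess offsets (0.0026), and DUSP4 down with TMM over weaker peaks (-0.072). In the residual contrast loess offsets turned up the ETV1 intronic peak (0.016) and the start peaks of ETV5 (0.10), DUSP6 (0.092) and SPRY4 (0.13). ETV4 (-0.22, -0.85 and -0.29) and SPRY4 (-0.17, -0.79 and -0.24) turned down with TMM over 10 kb bins, weaker peaks and peaks, and DUSP4 (-0.56) with weaker peaks. SPRY1 turned up with loess offsets (0.019), DESeq2 (0.0078), 3 kb upstream (0.00041) and peaks within 1 kb of a start (0.062). Without single libraries the sign changed for the DUSP4 start peak (-0.14 to 0.031), and in the cytokine contrast for the loci of ETV5 (-0.0037 to 0.046), DUSP5 (-0.0083 to 0.054) and SPRY2 (-0.046 to 0.0028), in the belinostat contrast for ETV4 (-0.026 to 0.012) and SPRY4 (-0.044 to 0.0030), and in the residual contrast for SPRY1 (-0.071 to 0.043).

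Replicate numbers gave no clear pairing of the libraries, since 9 of 18 same-numbered pairs correlated over 0.1 (range -0.41 to 0.38) and 4 of 18 libraries correlated best with their own number. The labels do not say whether same-numbered libraries shared a culture, and with 6 libraries per group this check cannot decide it. With the replicate block 1 member peak opened in the cytokine contrast and 1 locus, SPRY1, opened after belinostat.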
